A study of Mus musculus with 15 samples.

Results

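The genes described here are the 80 mouse zinc finger genes whose symbol is Zfp followed by 3 digits, the first of them 4 or 9, and whose estimated read counts summed to at least 50 over 15 libraries of bone macrophages, out of 16886 genes in the deposited gene table. Of 89 such symbols in the table, 9 had lower sums, and just outside the minimum lay Zfp987 with a sum of 46.1 and Zfp980 with 36.1, while just inside it lay Zfp459 with 54 and Zfp981 with 72.7. The macrophages came from mice with a VLDLR knockout (VLDLR_KO, 5 libraries), from mice with a ROBO4 knockout (ROBO4_KO, 5 libraries) and from wild-type mice (WT, 5 libraries). The labels give the strain of all 3 groups as C57BL6J. VLDLR is a receptor for lipoproteins and reelin, ROBO4 is a receptor of the roundabout family known from endothelium, and M-CSF is the growth factor on which macrophages depend. All cultures received 20 ng/ml M-CSF for 14 days, and total RNA was sequenced as paired-end reads. How the knockout alleles were made, the animals' age, and whether the 5 libraries of a genotype were separate animals or cultures are not given in the sources used here, so each p value reflects the spread among these libraries, which may be technical.

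KRAB zinc finger proteins are a large family of mammalian repressors. Arrays of C2H2 zinc fingers bind DNA, often within retrotransposons, and the KRAB box recruits the corepressor TRIM28 (KAP1), which in turn brings histone methyltransferase, deacetylase and heterochromatin proteins. The genes arose by repeated local duplication, so they lie in clusters of close relatives on the chromosomes. The deposited Pfam annotation gave a KRAB box to 64 of the 80 genes. By name, 50 of the 51 Zfp9xx genes carried it, against 14 of the 29 Zfp4xx genes, so by this annotation the name KRAB-type does not hold for 16 genes. The annotation listed C2H2 fingers for 73 genes and a SCAN domain, a dimerisation module of other zinc finger proteins, for 4. Among the genes without a KRAB box were Zfp414, Zfp462 and Zfp488. No Pfam domain at all was listed for 3 genes.

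Promoter sequences are shown for the genes on which the results below turn, because those of the chromosome 4 genes Zfp985, Zfp984 and Zfp979 resemble each other while their levels moved in opposite directions. Each is the strand of transcription, 5′ to 3′, from 250 bases before to 50 bases after the RefSeq start site in GRCm38.p6. Capitals mark CCAAT, the motif known for NF-Y, and GGGCGG, the GC box known for Sp1 factors, each searched on both strands.
Zfp985 (chr4:147553027-147553326, plus strand): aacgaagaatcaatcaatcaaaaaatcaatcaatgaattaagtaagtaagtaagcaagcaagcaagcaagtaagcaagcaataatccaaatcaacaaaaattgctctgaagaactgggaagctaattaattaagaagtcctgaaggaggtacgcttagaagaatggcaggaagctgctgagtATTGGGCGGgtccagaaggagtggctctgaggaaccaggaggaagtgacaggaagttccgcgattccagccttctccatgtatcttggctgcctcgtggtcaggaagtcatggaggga
Zfp984 (chr4:147809739-147810038, minus strand): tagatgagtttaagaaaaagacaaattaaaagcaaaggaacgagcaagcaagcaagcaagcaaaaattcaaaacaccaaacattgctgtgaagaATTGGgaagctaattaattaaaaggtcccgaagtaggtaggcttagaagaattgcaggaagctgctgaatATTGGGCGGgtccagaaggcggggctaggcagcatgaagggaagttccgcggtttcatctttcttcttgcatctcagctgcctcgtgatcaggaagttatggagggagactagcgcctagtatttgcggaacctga
Zfp979 (chr4:147642459-147642758, minus strand): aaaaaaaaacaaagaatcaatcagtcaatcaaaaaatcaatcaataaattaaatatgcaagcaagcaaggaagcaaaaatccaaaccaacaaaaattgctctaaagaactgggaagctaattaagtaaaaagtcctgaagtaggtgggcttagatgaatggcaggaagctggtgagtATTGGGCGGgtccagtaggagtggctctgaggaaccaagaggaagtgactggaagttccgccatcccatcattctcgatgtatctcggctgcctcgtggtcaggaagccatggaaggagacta
Zfp429 (chr13:67399718-67400017, minus strand): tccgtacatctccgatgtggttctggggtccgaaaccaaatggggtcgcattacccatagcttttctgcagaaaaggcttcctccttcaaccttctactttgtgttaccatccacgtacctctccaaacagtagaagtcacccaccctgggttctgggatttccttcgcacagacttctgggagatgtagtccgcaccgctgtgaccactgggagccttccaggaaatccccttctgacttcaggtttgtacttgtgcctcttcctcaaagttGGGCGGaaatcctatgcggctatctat
Zfp932 (chr5:109996260-109996559, plus strand): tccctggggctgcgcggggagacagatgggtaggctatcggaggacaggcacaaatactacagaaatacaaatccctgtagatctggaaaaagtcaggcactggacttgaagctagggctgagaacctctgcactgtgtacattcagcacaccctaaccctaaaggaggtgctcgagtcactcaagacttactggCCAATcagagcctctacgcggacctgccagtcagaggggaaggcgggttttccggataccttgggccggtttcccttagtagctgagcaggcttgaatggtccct
In a global alignment of the first 3 promoters, Zfp985 and Zfp979 were identical at 81.3% of positions, Zfp985 and Zfp984 at 70.2%, and Zfp984 and Zfp979 at 67.9%, with gaps counted as differences. Pairs with or between Zfp429 and Zfp932 were at 44.0% to 47.5%. These 3 promoters hold a CCAAT motif on the opposite strand that overlaps a GC box. The promoter of Zfp933, in the same cluster, holds neither motif and was identical to them at 45.6% to 48.5% of positions. RefSeq promoters were matched for 66 of the 80 genes. CCAAT was present in 62.1% of these 66 and in 37.9% of all 27025 promoters of this length, and GGGCGG in 40.9% and 35.9%. These matches describe letters, not binding.

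The 15 libraries held 18132866 to 19005966 estimated counts each. Vldlr itself had 1 to 9 counts in VLDLR_KO, 2 to 38 in ROBO4_KO and 5 to 36 in WT libraries, and its decrease in VLDLR_KO against WT was not called (log2 fold change -1.07, edgeR adjusted p = 0.327). Robo4 had 0 to 1, 0 and 0 to 4 counts, so neither gene checks the labels firmly at this depth. The 7 macrophage markers examined (Csf1r, Adgre1, Cd68, Itgam, Mertk, Fcgr1, Lyz2) summed to 18206 to 33158 counts per 1e6 reads (CPM) in VLDLR_KO, 11930 to 14528 in ROBO4_KO and 10343 to 16358 in WT libraries, so they were highest in VLDLR_KO without overlap. Markers of fibroblasts and stroma summed to at most 19, 122 and 167 CPM in VLDLR_KO, ROBO4_KO and WT, and those of neutrophils, B cells, endothelium and dendritic cells, with the T cell, mast cell and erythroid markers present in the table, to at most 15.3 CPM each in any library. Immediate-early genes reached 1452 CPM in 1 WT library and stayed below 100 in the libraries of both knockouts. The sample codes come in 2 forms, some with their digit ahead of the letter B (7 libraries) and some with it behind (8 libraries), called before B and after B here. The labels leave the form unexplained, and each form holds all 3 genotypes, so the form was a covariate of every fit. Differences in RNA per cell and in the share of cells of a type cannot be told apart in these bulk libraries.

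The first comparison asked which of these genes change in macrophages without VLDLR. Against WT, 12 genes were lower and 3 were higher in VLDLR_KO among the 77 that passed the filter on low counts. These 15 calls are 19.5% of the tested genes, beside 16.8% of all 11668 tested genes called in this comparison (edgeR quasi-likelihood test, Benjamini-Hochberg adjusted p below 0.05 over all tested genes), so the share itself is near the background. By direction, 9.03% of all tested genes were called lower and 7.74% higher. The median log2 fold change of the 77 genes was -0.07, beside 0.02 for all tested genes, and 47 of the 77 values were below 0. All 15 calls were genes with a KRAB box, 15 of 61 tested (24.6%), while none of the 16 genes without one was called. The sizes ranged widely: Zfp985 rose by more than 1 log2 unit, Zfp984, Zfp429, Zfp979, Zfp991 and Zfp473 fell by more than 1, and the other 9 calls were smaller. The macrophage marker sum given above moves with this comparison, and its part in these differences was not tested. The 62 genes not called had log2 fold changes between -0.77 (Zfp934) and 1.35 (Zfp462), and 55 of them lay within 0.5 of 0. The 3 genes that did not pass the filter were Zfp459, Zfp981 and Zfp990.

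**Figure D1:**
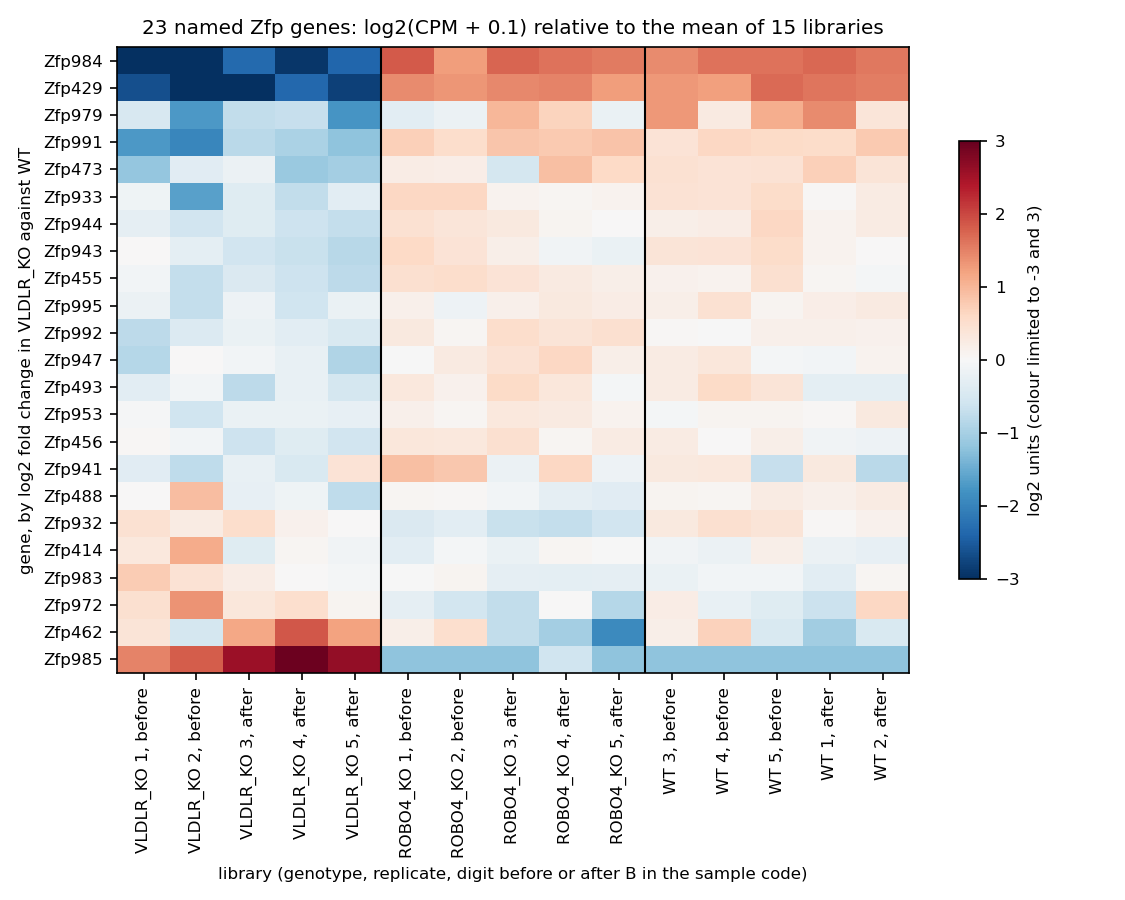
Heat map of the 23 named Zfp genes (rows, ordered by log2 fold change in VLDLR_KO against WT) in the 15 libraries (columns: VLDLR_KO, ROBO4_KO, WT, each split by the place of the digit in the sample code); colour is log2(CPM + 0.1) relative to the gene's mean over the libraries, limited to 3 log2 units on either side. Zfp984, Zfp429, Zfp979 and Zfp991 are lowest in all 5 VLDLR_KO libraries, Zfp985 is highest there, and Zfp932 is lowest in the 5 ROBO4_KO libraries.

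Positions were compared next. Members that lay in runs of at least 3 with at most 1 Mb between neighbouring starts formed 7 clusters with 41 genes, 1 each on chromosomes 2, 4, 7, 8 and 13 and 2 on chromosome 17. Within clusters 12 of 38 tested genes were called in VLDLR_KO against WT (31.6%; 10 lower, 2 higher), and outside clusters 3 of 39 (7.69%; 2 lower, 1 higher), beside 16.8% of all tested genes. These counts are a description, with no test of the difference. The clusters on chromosomes 4 and 13 and 1 of those on chromosome 17 held all 12 of these calls, and the other 4 clusters, with 17 tested genes, held none.

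The cluster on the distal part of chromosome 4, with member starts from 145510759 to 147822986, held both the largest decrease and the largest increase among the tested members. Of its 7 members 5 were tested, and all 5 were called in VLDLR_KO against WT, 4 lower and 1 higher, beside 16.8% of all tested genes. None of the 5 was called in ROBO4_KO against WT, beside 0.643% of all tested genes. Zfp984 (chromosome 4, 147753974 to 147848375, minus strand) had 1.20, 0.416, 2.91, 1.90 and 2.81 CPM in the 5 VLDLR_KO libraries, 53.4, 35.8, 50.3, 46.4 and 43.9 CPM in ROBO4_KO, and 49.7, 44.7, 40.2, 46.3 and 46.4 CPM in WT. Every VLDLR_KO library was far below every other library, and the ROBO4_KO and WT ranges overlapped. For Zfp984 the log2 fold change came to -4.72 (SE 0.28, edgeR adjusted p = 3.11e-08) in VLDLR_KO against WT and -0.05 (SE 0.22) in ROBO4_KO against WT. In the authors' deposited table, which was made within each form of sample code and gives WT over VLDLR_KO, the value was 5.80 for the digit before B and 4.21 for the digit after B.

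Zfp985 (chromosome 4, 147553277 to 147585201, plus strand) went the other way. It had 10, 11.8, 24, 29.7 and 25 estimated counts in VLDLR_KO libraries, at most 1 count in any ROBO4_KO library and 0 counts in all 5 WT libraries. The groups did not overlap, and VLDLR_KO averaged 1.10 ± 0.465 CPM (SD, n = 5). Set against a floor of 3 counts per library in WT, this is at least 6.79-fold higher in VLDLR_KO (edgeR adjusted p = 4.52e-05). Zfp985 could pass the filter on low counts only through its VLDLR_KO libraries, so its call as higher was nearly fixed by its entry. The p value therefore adds little to the counts themselves, and the numbers of calls given here include this gene. The gene is low: the highest VLDLR_KO library had 1.67 CPM, against the 40.2 to 49.7 CPM of Zfp984 in WT. Because such neighbours are similar in sequence, reads may be split between them, so their counts were also summed. The sum of Zfp984 and Zfp985 was 2.95 ± 1.42 CPM in VLDLR_KO, 46.0 ± 6.75 CPM in ROBO4_KO and 45.5 ± 3.45 CPM in WT (SD, n = 5 each), a log2 fold change of -4.06 in VLDLR_KO against WT, so the gain of Zfp985 did not make up for the loss of Zfp984.

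Zfp991 (chromosome 4, 146943702 to 147457020, plus strand) was the member of this cluster with the highest level. It had 15.3, 13.0, 28.9, 26.3 and 21.9 CPM in VLDLR_KO, 83.3, 73.8, 91.0, 87.5 and 92.7 CPM in ROBO4_KO, and 75, 87.9, 67.7, 78.8 and 75.3 CPM in WT. All VLDLR_KO libraries were below all others, with a log2 fold change of -1.98 against WT (SE 0.14, edgeR adjusted p = 1.84e-07). Its RefSeq span lies within that of Zfp978, a protein-coding gene that is not listed in the gene table, so its reads could include those of Zfp978. Zfp992 (chromosome 4, 146449030 to 146469440, plus strand) fell less. It had 23.8, 30.9, 35.8, 33.0 and 30.0 CPM in VLDLR_KO, 50.7, 43.2, 59.2, 53.8 and 57.8 CPM in ROBO4_KO, and 45.6, 45.1, 42.3, 40.9 and 45.5 CPM in WT, again with no overlap between VLDLR_KO and WT (log2 fold change -0.56, SE 0.09, edgeR adjusted p = 0.000476). Zfp933 (chromosome 4, 147822986 to 147848461) had 8.69, 3.03, 7.40, 5.69 and 7.73 CPM in VLDLR_KO, 14.8, 14.8, 10.3, 9.90 and 10.3 CPM in ROBO4_KO, and 9.78, 11.4, 13.1, 12.8 and 14.0 CPM in WT. VLDLR_KO and WT did not overlap, and the log2 fold change of -0.84 (SE 0.23, edgeR adjusted p = 0.0201) was no longer called without WT replicate 2 (-0.82, adjusted p = 0.0519). The deposited spans of Zfp984 and Zfp933 overlap, so reads there may not be told apart, while their RefSeq spans do not overlap. The deposited positions put Zfp933 on the plus strand and Zfp984 on the minus strand, but by RefSeq start sites both are on the minus strand.

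Zfp979, also known as Ssm1b, a modifier of transgene methylation known from mouse strains, belongs to the same region in RefSeq (147611936 to 147642508), although its deposited span joins distant placements on chromosome 4 and put it outside the cluster. It had 0.272, 0.0595, 0.211, 0.223 and 0.0530 CPM in VLDLR_KO, 0.320, 0.362, 0.944, 0.730 and 0.358 CPM in ROBO4_KO, and 1.29, 0.571, 1.20, 0.529 and 1.01 CPM in WT. VLDLR_KO was below both other groups in every library (log2 fold change against WT -2.51, SE 0.48, edgeR adjusted p = 0.00259) and all levels were low. The untested Zfp990 had 7, 8, 41.4, 32.9 and 27.3 estimated counts in VLDLR_KO, 4.24, 1, 4, 2.7 and 3 in ROBO4_KO, and 3, 4, 5, 6 and 2 in WT, so the VLDLR_KO libraries were the highest, most of all those with the digit after B. The other untested member here, Zfp981, had 5 to 7 counts in VLDLR_KO, 2 to 6.66 in ROBO4_KO and 2 to 6 in WT.

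By RefSeq positions, which place Zfp979 here too, 9 tested Zfp genes or genes with a KRAB box lie in the 2.31 Mb of the region. All 9 were called in VLDLR_KO against WT, 6 lower and 3 higher, beside 16.8% of all tested genes (9.03% lower, 7.74% higher). Besides the 6 genes above they were Gm13212 (log2 fold change -0.77, edgeR adjusted p = 0.000359), Rex2 (7.35, SE 0.89, adjusted p = 0.000272) and Zfp534 (1.82, adjusted p = 0.015). The counts of Rex2 are not given here, so its value should not be read as a firm size. None of the 9 was called in ROBO4_KO against WT, where 0.643% of all tested genes were called. In that comparison Rex2 had a log2 fold change of 3.46 with a standard error of 1.24. Of the other genes there by the deposited positions, Gm42368, which has no KRAB box, was the single one tested and was called in both knockouts (1.27 in VLDLR_KO and 1.83 in ROBO4_KO against WT, edgeR adjusted p = 0.0144 and 0.00933). Summed over the 7 members of the cluster, the level was 62.8 ± 13.0 CPM in VLDLR_KO, 197 ± 16.9 CPM in ROBO4_KO and 179 ± 9.39 CPM in WT (SD, n = 5 each; log2 fold change against WT -1.58, edgeR adjusted p = 4.55e-08), so the decreases outweighed the increases.

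**Figure D2:**
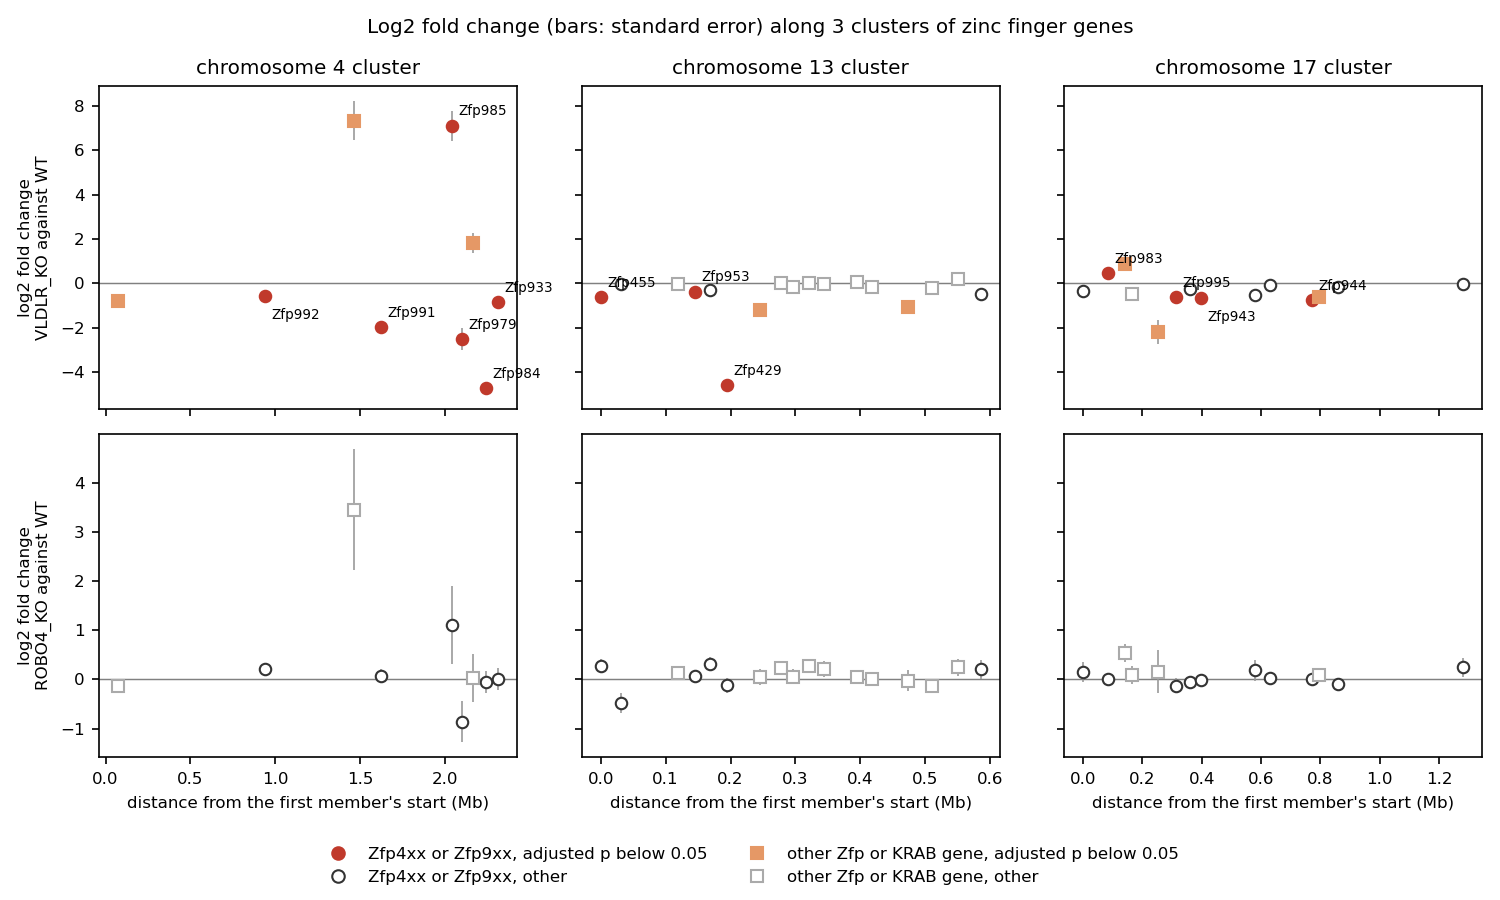
Log2 fold changes (vertical axes; bars are standard errors) of tested Zfp genes and genes with a KRAB box along 3 clusters (columns), against the distance in Mb of their RefSeq start from that of the first member of the cluster, for VLDLR_KO against WT (top) and ROBO4_KO against WT (bottom, on its own scale). Filled points are calls with an adjusted p below 0.05: in VLDLR_KO all 9 genes on chromosome 4, 5 of 17 on chromosome 13 and 7 of 14 on chromosome 17, and in ROBO4_KO none. Of all tested genes, 16.8% were called in VLDLR_KO against WT and 0.643% in ROBO4_KO against WT.

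On chromosome 13, 7 members start between 67194506 and 67779693, in the region of the Rsl genes (regulators of sex-limitation), which are known in mice for repressing sex-limited genes of the liver. Zfp429, also known as Rsl2 (67388927 to 67399767, minus strand), had 0.489, 0.297, 0.264, 0.614 and 0.424 CPM in VLDLR_KO, 9.64, 9.01, 9.72, 10.1 and 8.65 CPM in ROBO4_KO, and 11.1, 10.4, 8.85, 8.52 and 11.8 CPM in WT. Every VLDLR_KO library was below 1 CPM and every other library above 8, and the ROBO4_KO values lay within or near the WT range. For Zfp429 this gave log2 fold changes of -4.59 in VLDLR_KO against WT (SE 0.19, edgeR adjusted p = 1.35e-09) and -0.12 in ROBO4_KO against WT (SE 0.15). Zfp455 had 5.92, 3.81, 4.60, 4.07 and 3.60 CPM in VLDLR_KO, 8.74, 9.11, 8.39, 7.61 and 7.12 CPM in ROBO4_KO, and 6.54, 6.05, 6.82, 6.77 and 8.85 CPM in WT. VLDLR_KO was lower than both other groups without overlap (log2 fold change against WT -0.62, SE 0.14, edgeR adjusted p = 0.00682).

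The other changes on chromosome 13 were smaller. Zfp953 averaged 8.47 ± 1.16 CPM in VLDLR_KO, 11.5 ± 0.883 CPM in ROBO4_KO and 10.7 ± 0.982 CPM in WT (SD, n = 5 each), with an overlap between VLDLR_KO and WT and a log2 fold change of -0.36 (edgeR adjusted p = 0.037). That call was lost when any of 9 libraries was left out (WT 2, 4 or 5, ROBO4_KO 2 or 4, VLDLR_KO 2, 3, 4 or 5; adjusted p up to 0.112), and the span of Zfp953 overlaps that of Zfp595, which had a log2 fold change of -0.04. Zfp456 and Zfp493 had log2 fold changes of -0.30 and -0.47 and were not called against WT (edgeR adjusted p = 0.125 and 0.0968). The untested Zfp459 had 3 to 6 counts in VLDLR_KO, 1 to 4 in ROBO4_KO and 1 to 8 in WT. Of 11 other tested Zfp genes in the cluster, 2 were called, both lower: Zfp738 (log2 fold change -1.07) and Zfp874a (-1.19). In all, 5 of the 17 tested Zfp genes of this cluster were called, beside 16.8% of all tested genes. Among the tested genes Zfp429 and Zfp874a came next to each other, with the untested Zfp459 between them. Zfp455 was the first gene of the cluster, and Zfp738 lay between genes that were not called. The 7 members summed to 23.7 ± 2.08 CPM in VLDLR_KO, 43.1 ± 2.88 CPM in ROBO4_KO and 41.1 ± 2.69 CPM in WT (SD, n = 5 each; log2 fold change against WT -0.78, edgeR adjusted p = 6.47e-06). Over all 19 Zfp genes of the cluster the decrease was smaller. Their sum was 169 ± 27.3, 217 ± 14.6 and 211 ± 10.7 CPM in the same groups (log2 fold change against WT -0.30, edgeR adjusted p = 0.0356).

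The third cluster with calls, on chromosome 17 with starts between 21566607 and 22846697, has 10 members, all tested. Of these, 3 were called lower and 1 higher in VLDLR_KO against WT, beside 9.03% and 7.74% of all tested genes. Zfp944 had 9.35, 7.61, 8.83, 7.31 and 6.83 CPM in VLDLR_KO, 15.7, 14.7, 13.9, 12 and 11.4 CPM in ROBO4_KO, and 12.3, 13.4, 12.7, 13.2 and 17.4 CPM in WT. VLDLR_KO was lowest without overlap (log2 fold change against WT -0.75, SE 0.12, edgeR adjusted p = 0.000586). Zfp943 had 13.2, 10.6, 8.67, 8.14 and 7.31 CPM in VLDLR_KO, 19.9, 17.3, 14.7, 12 and 11.4 CPM in ROBO4_KO, and 14.0, 13.2, 17.0, 17.5 and 19.1 CPM in WT. The highest VLDLR_KO library reached the lowest WT library. The gene also differed between the forms of sample code (log2 fold change of after over before B -0.50, edgeR adjusted p = 0.000385), and with the form in the fit the value in VLDLR_KO against WT was -0.67 (SE 0.10, edgeR adjusted p = 0.000475). Zfp995 averaged 3.89 ± 0.725 CPM in VLDLR_KO, 5.49 ± 0.633 CPM in ROBO4_KO and 5.88 ± 0.62 CPM in WT (SD, n = 5 each), with no overlap between VLDLR_KO and WT (log2 fold change -0.62, edgeR adjusted p = 0.0115).

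Zfp983, by contrast, rose in VLDLR_KO. It had 24.1, 19.1, 16.5, 14.3 and 13.7 CPM in VLDLR_KO, 14.1, 15, 11.7, 11.5 and 11.6 CPM in ROBO4_KO, and 11.3, 14.6, 12.4, 13.3 and 13.4 CPM in WT. The VLDLR_KO libraries with the digit before B were the highest, those with the digit after B overlapped WT, and the log2 fold change of 0.47 (SE 0.12, edgeR adjusted p = 0.015) was not called among the libraries with the digit after B alone (0.20, adjusted p = 0.36). Of 4 other tested Zfp genes in this cluster, Zfp820 and Zfp758 were called lower (log2 fold change -2.17 and -0.62) and Zfp760 higher (0.87). Summed over the 10 members, the level was 106 ± 13.5 CPM in VLDLR_KO, 124 ± 11.9 CPM in ROBO4_KO and 124 ± 7.43 CPM in WT, which was not called (SD, n = 5 each, log2 fold change against WT -0.20, edgeR adjusted p = 0.117). In the cluster on chromosome 2, with starts between 175469720 and 178050012, none of 8 tested members was called in VLDLR_KO against WT, beside 16.8% of all tested genes. Of 13 other tested Zfp or KRAB genes in that cluster, Gm14295 was the single call (log2 fold change -0.34).

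**Figure D3:**
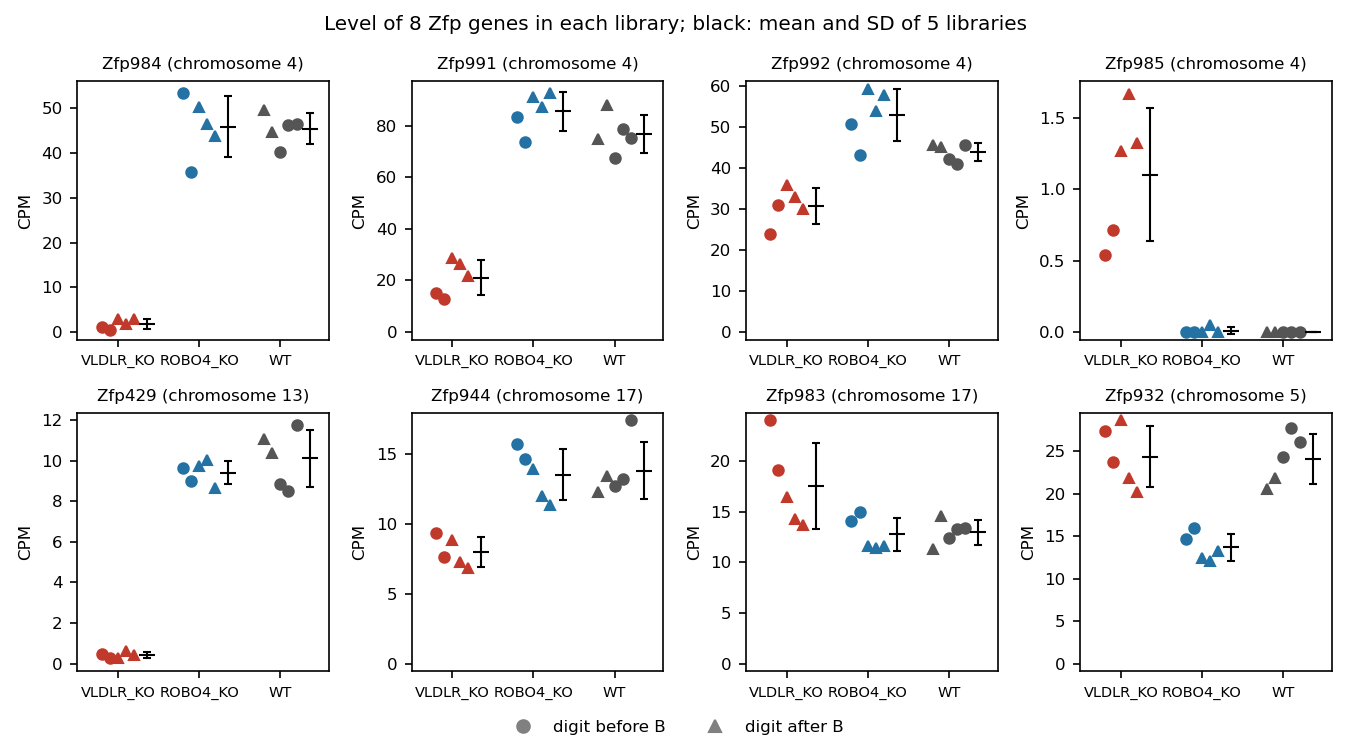
Level in CPM (vertical axes, each starting at 0) of 8 Zfp genes in each library of VLDLR_KO, ROBO4_KO and WT; circles and triangles show the 2 forms of sample code, and the black mark and bar are the mean and SD of 5 libraries. Zfp984, Zfp991, Zfp992, Zfp429 and Zfp944 are lower in all VLDLR_KO than in all WT libraries, Zfp985 is detected above 1 count only in VLDLR_KO, Zfp983 overlaps between groups, and Zfp932 is lower in all ROBO4_KO libraries.

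Outside the clusters as built from the deposited positions, the calls in VLDLR_KO against WT were Zfp979, Zfp473 and Zfp958. Zfp473, whose human counterpart takes part in the processing of histone transcripts with the U7 snRNP, had 0.326, 0.654, 0.740, 0.335 and 0.371 CPM in VLDLR_KO, 1.01, 0.984, 0.555, 1.67 and 1.33 CPM in ROBO4_KO, and 1.45, 1.14, 1.20, 1.16 and 1.17 CPM in WT. VLDLR_KO and WT did not overlap, at 6 to 32 counts per library over all groups (log2 fold change -1.35, SE 0.32, edgeR adjusted p = 0.0109). Zfp958 on chromosome 8, which fell outside the rule for named genes and is given to complete the calls, averaged 11.9 ± 1.38 CPM in VLDLR_KO, 9.43 ± 0.813 CPM in ROBO4_KO and 9.30 ± 0.733 CPM in WT (SD, n = 5 each), a small increase with overlapping groups (log2 fold change against WT 0.37, edgeR adjusted p = 0.0294). No member lay within 10 Mb of either targeted gene: the nearest were Zfp426, 16.9 Mb from Robo4 on chromosome 9, and Zfp950, 33.9 Mb from Vldlr on chromosome 19. Neither was called in any comparison of genotypes.

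The knockouts were then compared with each other. In VLDLR_KO against ROBO4_KO, 22 of 77 genes were called (28.6%), 16 lower and 6 higher, beside 16% of all tested genes (8.44% lower, 7.57% higher), and the median log2 fold change was -0.10, beside 0.02 for all tested genes. All 15 genes called against WT were among the 22, in the same direction, but both comparisons share the VLDLR_KO libraries. The count fell to 14 without the form covariate, where the share of all tested genes is not given here. Within the libraries before B it fell to 11, beside 12.6% of all tested genes. Of the 22, 21 had a KRAB box. The log2 fold changes in VLDLR_KO against ROBO4_KO were -4.66 for Zfp984, -4.47 for Zfp429, -2.06 for Zfp991 and 6.01 for Zfp985. That of Zfp985 has no firm size, with at most 1 count in any ROBO4_KO library, and was not called before B (edgeR adjusted p = 0.0542).

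The 7 further genes were Zfp932, Zfp462, Zfp972, Zfp947, Zfp493, Zfp964 and Zfp456. On chromosome 13, Zfp456 had 5.65, 5.23, 3.54, 4.24 and 3.71 CPM in VLDLR_KO, against 7.03, 6.89, 7.78, 5.73 and 6.55 CPM in ROBO4_KO, without overlap (log2 fold change -0.62, edgeR adjusted p = 0.00449). Zfp493 had 3.59, 4.22, 2.59, 3.85 and 3.12 CPM in VLDLR_KO, against 5.65, 4.97, 6.72, 5.73 and 4.35 CPM in ROBO4_KO, also without overlap (log2 fold change -0.67, edgeR adjusted p = 0.0209). With these, 5 of the 6 tested members of the chromosome 13 cluster were called lower in VLDLR_KO than in ROBO4_KO, beside 8.44% of all tested genes. Of all 17 tested Zfp genes of that cluster, 7 were called, all lower, with a median log2 fold change of -0.22. Zfp947 in the chromosome 17 cluster (log2 fold change -0.69, edgeR adjusted p = 0.0353) and Zfp964 on chromosome 8 (-0.67, adjusted p = 0.012; named after its values were seen) were lower as well. Zfp972 in the chromosome 2 cluster had 1.68, 3.15, 1.53, 1.73 and 1.27 CPM in VLDLR_KO, against 0.959, 0.777, 0.666, 1.20 and 0.614 CPM in ROBO4_KO (log2 fold change 1.13, edgeR adjusted p = 0.0277), higher without overlap. Several of these calls were lost, with the direction kept, when 1 library was left out. The call of Zfp493 ended for 2 libraries (ROBO4_KO 3 or 4), of Zfp947 for 5 (ROBO4_KO 2, 3 or 4, VLDLR_KO 1 or 5) and of Zfp972 for 5 (ROBO4_KO 1, 2, 3 or 5, VLDLR_KO 2), with edgeR adjusted p up to 0.0608, 0.0914 and 0.0735. Among the genes described earlier, that of Zfp979 ended for 6 (ROBO4_KO 2, 3 or 4, VLDLR_KO 2, 3 or 5), of Zfp995 for 7 (ROBO4_KO 1, 3, 4 or 5, VLDLR_KO 2, 4 or 5) and of Zfp473 for 2 (ROBO4_KO 4, VLDLR_KO 5), with adjusted p up to 0.0951, 0.0831 and 0.0662.

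Zfp462, a gene without a KRAB box that is known from mouse embryonic stem cells as a regulator of heterochromatin, varied widely among libraries. It had 9.51, 4.99, 16.4, 26.8 and 16.9 CPM in VLDLR_KO, 8.26, 10.4, 4.28, 3.54 and 1.84 CPM in ROBO4_KO, and 3.47, 5.25, 8.17, 11.8 and 5.22 CPM in WT. The 3 VLDLR_KO libraries with the digit after B were above every other library, and the 2 with the digit before B lay among them. The log2 fold change of 1.57 against ROBO4_KO (SE 0.51, edgeR adjusted p = 0.0498) was 2.64 among libraries with the digit after B (adjusted p = 0.00178) and -0.35 among those with the digit before B (adjusted p = 0.55). Leaving out any 1 of 12 libraries, all but ROBO4_KO 2, VLDLR_KO 1 and VLDLR_KO 2, ended its call (adjusted p up to 0.12).

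The second knockout was compared with WT to ask which of these genes change without ROBO4. In ROBO4_KO against WT, 1 of 77 genes was called (1.3%), beside 0.643% of all tested genes, 0.343% higher and 0.3% lower. The median log2 fold change was 0.04, beside 0.01 for all tested genes, and 70 of the 76 genes not called lay within 0.5 of 0. The call was Zfp932 (chromosome 5, 109996502 to 110012266, plus strand), a KRAB zinc finger gene known in mouse embryonic stem cells for repressing endogenous retroviruses. It had 14.7, 15.9, 12.5, 12.1 and 13.3 CPM in ROBO4_KO, 27.4, 23.7, 28.7, 21.9 and 20.2 CPM in VLDLR_KO, and 20.6, 21.9, 24.3, 27.7 and 26.2 CPM in WT. All ROBO4_KO libraries were below all others, while VLDLR_KO and WT overlapped.

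For Zfp932 the log2 fold change amounted to -0.77 in ROBO4_KO against WT (SE 0.10, edgeR adjusted p = 0.000883) and 0.84 in VLDLR_KO against ROBO4_KO (SE 0.10, adjusted p = 4.23e-05). Within the forms of sample code the value in ROBO4_KO against WT was nearly the same, -0.77 before B and -0.75 after B, but with fewer libraries it was not called (edgeR adjusted p = 0.119 and 0.0596), in fits that called 0.168% and 1.6% of all tested genes. In the authors' deposited table, which gives WT over ROBO4_KO, it was 0.76 (q = 0.000101) before B and 0.75 (q = 0.00024) after B. Zfp932 belongs to none of the clusters. Within 1 Mb of it, 4 other tested genes with a KRAB box were not called in ROBO4_KO against WT: AB010352, 4930522L14Rik, Gm35315 and Zfp605, with log2 fold changes of 0.18, 0.21, 0.09 and -0.07. At the level of transcripts, the curated transcript of Zfp932 had 4.31 CPM in ROBO4_KO, 11.4 in VLDLR_KO and 10.7 in WT (log2 fold change in ROBO4_KO against WT -1.25, edgeR adjusted p = 0.0192, with 0.11% of all 30096 tested transcripts called, against 3.33% in VLDLR_KO against WT and 3.27% in VLDLR_KO against ROBO4_KO). Of its predicted transcripts, the one with the most reads had 5.70, 8.54 and 8.94 CPM in ROBO4_KO, VLDLR_KO and WT and was not called.

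**Figure D4:**
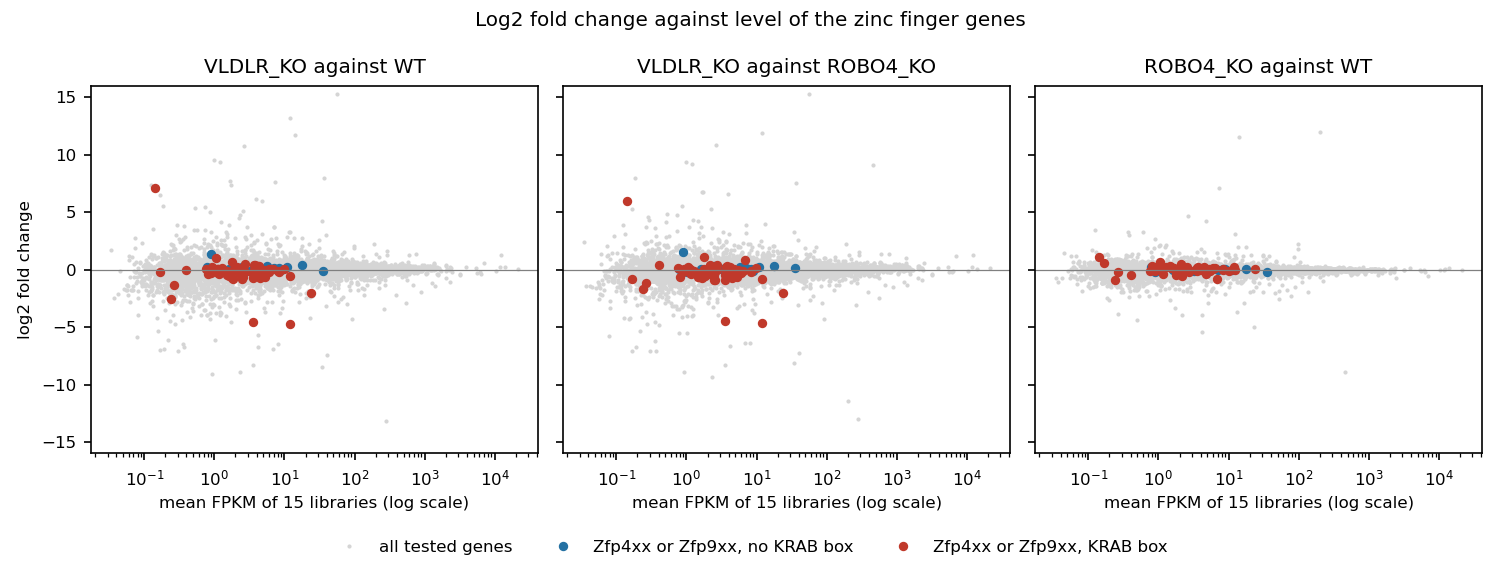
Log2 fold change (vertical axis) against the mean FPKM of the 15 libraries (horizontal axis, log scale) for all 11668 tested genes (grey) and the 77 Zfp genes, with a KRAB box (red) and without (blue), in VLDLR_KO against WT, VLDLR_KO against ROBO4_KO and ROBO4_KO against WT. Among the 77 Zfp genes, those farthest from 0 in the VLDLR_KO comparisons are red, with Zfp985 at 7.12 and Zfp984 at -4.72 against WT. The value of Zfp985 has no firm size, since every WT library had 0 counts. Grey points of other genes lie farther out. In ROBO4_KO against WT the 77 lie between -0.86 and 1.11.

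Levels between genes were compared by the deposited FPKM, a value per length. The 77 tested genes had a median of 2.48 FPKM, beside 10.5 for all tested genes, so they were low as a group. The 61 with a KRAB box had a median of 2.48 and the 16 without one a median of 2.86 FPKM. The highest were Zfp488 with 35.3 ± 8.76 FPKM, Zfp991 with 23.7 ± 11.7, Zfp414 with 18 ± 5.14 and Zfp984 with 12.2 ± 8.50 (SD over 15 libraries). Zfp488, known in mice as a regulator of oligodendrocyte differentiation, has no Pfam domain listed. It had 144, 271, 120, 130 and 83.9 CPM in VLDLR_KO, 149, 146, 133, 119 and 112 CPM in ROBO4_KO, and 159, 170, 150, 147 and 168 CPM in WT. VLDLR_KO held both the highest and the lowest library, so the groups overlapped and the log2 fold change against WT was -0.07 (SE 0.19). Zfp414 likewise had its highest value in VLDLR_KO replicate 2, at 36.6 CPM, against 13.1 to 21.1 CPM in the other VLDLR_KO libraries, 13.6 to 17.7 CPM in ROBO4_KO and 14.3 to 19 CPM in WT. That library had the highest level of 14 of the 77 tested genes, more than any other. The lowest tested genes were Zfp985 and Zfp941, and Zfp941 averaged 0.478 ± 0.189 CPM in VLDLR_KO, 0.842 ± 0.318 CPM in ROBO4_KO and 0.56 ± 0.236 CPM in WT (SD, n = 5 each), with no call.

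The form of the sample code separated libraries of all 3 genotypes. Between forms 17 of the 77 genes were called (22.1%; 14 lower and 3 higher after B), beside 38.1% of all tested genes, and whether the 2 forms are batches is not stated in the labels. The difference between VLDLR_KO and WT itself differed between forms for 10 of the 77 genes, beside 15.2% of all tested genes, and that between ROBO4_KO and WT for 0, where 0.403% of all tested genes were called (edgeR interaction terms). For Zfp984 and Zfp991 the decrease in VLDLR_KO was larger before B (log2 fold change -5.74 and -2.38) than after B (-4.21 and -1.67), with calls in both forms. For Zfp429 the values were -4.58 before B and -4.62 after B. Within a form, 14 members were called before B and 15 after B in VLDLR_KO against WT, beside 20.5% and 15.7% of all tested genes. In VLDLR_KO against ROBO4_KO the counts were 11 and 18, beside 12.6% and 14.8%. Of the named genes called in VLDLR_KO against WT over all libraries, Zfp455, Zfp473, Zfp933, Zfp953, Zfp979 and Zfp995 were not called before B, and Zfp473, Zfp953, Zfp983 and Zfp995 were not called after B, each with the same direction and fewer libraries.

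Other zinc finger genes and the proteins that work with KRAB boxes were examined beside them. Of 258 other tested Zfp genes, 26 were called in VLDLR_KO against WT (10.1%, 22 lower and 4 higher), beside 16.8% of all tested genes. In VLDLR_KO against ROBO4_KO 35 were called (13.6%), beside 16% of all tested genes, so both shares lay below those of all tested genes. In both comparisons 20 of these genes were called, and in either 41. These 41 were Zfp2, Zfp9, Zfp13, Zfp14, Zfp36, Zfp40, Zfp46, Zfp52, Zfp53, Zfp54, Zfp69, Zfp90, Zfp93, Zfp97, Zfp157, Zfp202, Zfp213, Zfp229, Zfp248, Zfp273, Zfp287, Zfp319, Zfp334, Zfp354c, Zfp503, Zfp512b, Zfp523, Zfp534, Zfp661, Zfp664, Zfp677, Zfp687, Zfp697, Zfp708, Zfp738, Zfp758, Zfp760, Zfp772, Zfp820, Zfp827 and Zfp874a, and 1 of them, Zfp36, encodes a different kind of zinc finger protein that binds RNA. Of 231 other tested genes with a KRAB box, 32 were called in VLDLR_KO against WT (13.9%, 25 lower and 7 higher), also below the 16.8% of all tested genes. None of either list was called in ROBO4_KO against WT. Of 26 genes of the KRAB corepressor machinery, 3 were called in VLDLR_KO against WT (11.5%, below the 16.8% of all tested genes) and 0 in ROBO4_KO against WT, where 0.643% of all tested genes were called. Trim28, the corepressor bound by the KRAB box, averaged 176 CPM in VLDLR_KO, 138 in ROBO4_KO and 131 in WT (log2 fold change in VLDLR_KO against WT 0.45, SE 0.11, edgeR adjusted p = 0.0132). Sumo2, a modifier of TRIM28 and many other proteins, was at 136, 127 and 111 CPM in the same groups (log2 fold change against WT 0.26, edgeR adjusted p = 0.0303), and the histone deacetylase gene Hdac1 at 35.7, 52.5 and 47.0 CPM (-0.45, adjusted p = 0.00096). Against ROBO4_KO, Trim28 was higher (0.35, edgeR adjusted p = 0.0444) and Hdac1 lower (-0.56, adjusted p = 0.000124) in VLDLR_KO. Setdb1, the histone methyltransferase recruited by TRIM28, had 61.8, 67.1 and 65.9 CPM in VLDLR_KO, ROBO4_KO and WT and was not called.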

How the data were processed

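Genes and lists were chosen with earlier results of these data known. The deposited gene and transcript tables hold estimated counts per library, made by the authors without normalization, per the file headers; HISAT, Bowtie2 and GRCm38.p6 are named in the submitters' processing notes without versions, and the quantifier and annotation release are not given in the sources used here. FPKM columns made by the authors carry no unit in the deposited table, so that unit was inferred from their ratio to the counts. The authors' log2 fold changes and q-values (adjusted p-values) in the deposited table were read as given.

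Counts were rounded and tested in R 4.3.3 with edgeR 4.0.16 (filterByExpr by genotype, 11668 genes; TMM; 1 coefficient per genotype plus the form of the sample code; quasi-likelihood F tests, two-sided, with p adjusted by Benjamini-Hochberg over all tested genes). CPM use TMM-scaled totals. The standard error is the log2 fold change divided by the square root of F. Totals of 18132866 to 19005966 counts limit low genes, and the floor of 3 counts covers counting error only. Replicates of a group differed beyond counting error (chi-square per degree of freedom 5.92 to 259). On simulated counts for VLDLR_KO against WT, with changed genes drawn from all 11668 tested genes, 81% of 2-fold and 94% of 4-fold changes were recovered. Of 185 calls there, 10 were unchanged genes. The genes described here are lower (median 2.48 FPKM, beside 10.5 for all tested genes) and were not simulated apart, so these rates may not hold for them.

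Named genes were the called ones with the largest changes (up to 12, 6 and 12 in VLDLR_KO against WT, ROBO4_KO against WT and VLDLR_KO against ROBO4_KO), the 4 highest and 2 lowest in FPKM, and every called member of a cluster with at least 2 calls. Alternatives were DESeq2 1.42.0 and its size factors, no filter, no form covariate, each form alone, a replicate block and leaving out libraries. Clusters by RefSeq position and summed counts were added after seeing the data.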

Additional observations from a re-analysis of the deposited data

Results flagged for a closer look

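In 5 of 69 groups of 5 libraries examined among the named genes, 1 library lay apart from the others by Dixon's criterion, and chance alone gives about 1 group in 20. Zfp985 had 0.0521 CPM in ROBO4_KO replicate 4, which is 1 count, and 0 CPM in the other ROBO4_KO libraries, but their deposited estimated counts were 0, 0.5, 0.5 and 0.5 before rounding, so this gap comes from the rounding of counts. Zfp473 had 1.45 CPM in WT replicate 1, against 1.14 to 1.20 CPM in the other WT libraries. Zfp944 had 17.4 CPM and Zfp455 had 8.85 CPM in WT replicate 5, against 12.3 to 13.4 and 6.05 to 6.82 CPM in the other WT libraries. Zfp972 had 3.15 CPM in VLDLR_KO replicate 2, against 1.27 to 1.73 CPM in the other VLDLR_KO libraries.

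For 4 named genes the log2 fold change in VLDLR_KO against WT differed between the forms of sample code, tested as an interaction in edgeR and given here as after minus before B. It was 2.41 for Zfp462 (adjusted p = 0.018), 1.53 for Zfp984 (adjusted p = 0.028), 0.72 for Zfp991 (adjusted p = 0.0223) and -0.98 for Zfp488 (adjusted p = 0.0482). The form is unexplained in the labels, and its part in these differences was not tested.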

How the results depend on the processing

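The count of genes called in VLDLR_KO against WT stayed within 1.5 times its value of 15 under every alternative run (12 to 17), and was 14 with a replicate block. Whether the same digit in a sample code pairs libraries stayed undecided. The correlations of 12 such pairs ran from -0.561 to 0.443, and 4 were over 0.1. They were taken on deviations from the mean of each genotype and form. Where that mean rests on 2 libraries, their deviations mirror each other, which fixes part of the signs in advance. In VLDLR_KO against ROBO4_KO, 22 calls became 14 without the form covariate, 11 among libraries with the digit before B and 12 with the replicate block. The median became -0.21 before B, where 12.6% of all tested genes were called. For the fits without the covariate and with the block that share is not given here. Their counts therefore do not show whether these genes lost calls more than others did. In ROBO4_KO against WT the count was 0 within each form. Leaving out 1 library gave 13 to 17, 15 to 21 and 1 to 1 calls in VLDLR_KO against WT, VLDLR_KO against ROBO4_KO and ROBO4_KO against WT, with medians of -0.128 to -0.0374, -0.136 to -0.0877 and 0.0041 to 0.0536. For single named genes, 1539 values kept their side of the threshold. These include values that changed sign while neither fit called them, such as Zfp488 in VLDLR_KO against WT (-0.56 to 0.43 over the fits). Another 110 values lost and 6 gained a call with the direction kept. Among values with a call in either fit, 1 reversed: Zfp462 in VLDLR_KO against ROBO4_KO, at -0.35 before B. Summed with Zfp984, Zfp985 reversed to -4.06 against WT and -4.0 against ROBO4_KO, by the construction of the sum. Clusters numbered 7 with gaps of 0.5 Mb or RefSeq positions and 8 with 2 Mb. Other causes were not tested. Zinc finger and KRAB patterns in proteins were not run, since no protein sequences were used here.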
